A study of Mus musculus with 6 samples.

Results

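The subunits of the oxidative phosphorylation complexes were followed in mouse tracheal epithelium before and during repair. Members were all probe sets whose array annotation gives a single gene symbol of the Nduf, Sdh, Uqcr, Cox4 to Cox8 or Atp5 families, which makes 164 probe sets for 81 genes among 34945 probe sets for 18193 genes. Of the 81 genes, 79 encode subunits of complexes I to V and 2 (Cox7a2l and Ndufa4l2) do not. A further 9 probe sets list a matching symbol beside another symbol and were outside the rule. Epithelium of uninjured adult male C57Bl/6 mice (control) was compared with epithelium taken 48 h after mice of the same strain had breathed 500 ppm SO2 for 4 h (48 hpi, hours post injury). SO2 is a gas that strips the luminal ciliated and secretory cells from the airway and leaves basal cells, the resident stem cells, to rebuild it. Each group had 3 arrays, and each array held RNA pooled from 4 tracheas. In both groups the sheets of epithelium were released with dispase and trypsin and CD45+ leukocytes were depleted with magnetic beads. Mesenchyme was not analysed here.

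Oxidative phosphorylation takes place in the inner mitochondrial membrane. Complexes I and II pass electrons to coenzyme Q, complex III passes them on to cytochrome c, and complex IV gives them to oxygen. Complexes I, III and IV pump protons, and complex V (ATP synthase) lets protons flow back and makes ATP. Most subunits are encoded in the nucleus, and they are assembled with a few subunits encoded by mitochondrial DNA, which are not among the members. In the airway, ATP drives the beat of cilia and fuels the growth of dividing basal cells. Promoters of many subunit genes are known to carry sites for NRF-1, for the ETS factor GABP (also called NRF-2), for YY1 and for estrogen-related receptors (ERR).

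The promoters of 65 of the 79 subunit genes were present in the RefSeq promoter table (build GRCm38.p6), with 70 promoters in all, each a window of 300 bases from 250 before to 50 after the start. The letters CCGGAAG (GABP), searched on both strands, stood in 24.3% of the 70 promoters and in 8.86% of 32851 promoters of all genes. The letters GCATGCG (NRF-1) stood in 14.3% and 3.58%, AAGATGG (YY1) in 14.3% and 6.34%, and AAGGTCA (ERR) in 11.4% and 4.72%. Among the promoters of genes measured on the array, the shares were 13% for GABP, 5.09% for NRF-1, 6.38% for YY1 and 3.92% for ERR. GCATGCG overlaps its own reverse complement, so that 1 site can be matched on both strands. By gene, the GABP letters stood in 5 of 27 subunit genes called higher at 48 hpi and in 12 of the 38 others. The NRF-1 letters stood in 3 of the 27 and 7 of the 38, the YY1 letters in 4 and 6, and the ERR letters in 3 and 5. These matches describe letters in a window and were not tested.

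To set the members' regulatory sequence beside their changes, the following lines give the 100 bases before the start of Atp5g1 and Ndufa1, the subunit genes with the largest rise and the largest fall, and of the named subunit genes that hold one of the motifs in that stretch, with the matched letters in capitals. They cover members that rose (Atp5g3, Sdhd) and members that were not called (Atp5g2, Cox6a1, Cox6b1, Sdhb). All are from GRCm38.p6 and run 5′ to 3′ on the strand of the gene.
Atp5g1 (chr11:96075632-96075731, minus strand): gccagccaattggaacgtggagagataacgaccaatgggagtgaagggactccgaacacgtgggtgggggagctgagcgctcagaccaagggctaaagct
Ndufa1 (chrX:37191239-37191338, minus strand): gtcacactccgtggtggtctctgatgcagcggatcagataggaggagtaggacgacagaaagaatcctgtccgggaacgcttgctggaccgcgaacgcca
Atp5g2 (chr15:102671048-102671147, minus strand): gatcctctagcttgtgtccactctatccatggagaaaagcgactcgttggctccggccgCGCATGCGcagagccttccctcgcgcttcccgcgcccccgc
Atp5g3 (chr2:73911327-73911426, minus strand): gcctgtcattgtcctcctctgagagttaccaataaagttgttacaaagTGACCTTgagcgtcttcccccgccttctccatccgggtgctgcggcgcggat
Cox6a1 (chr5:115348959-115349058, minus strand): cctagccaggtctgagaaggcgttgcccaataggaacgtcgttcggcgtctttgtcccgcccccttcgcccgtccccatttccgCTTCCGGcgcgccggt
Cox6b1 (chr7:30626115-30626214, minus strand): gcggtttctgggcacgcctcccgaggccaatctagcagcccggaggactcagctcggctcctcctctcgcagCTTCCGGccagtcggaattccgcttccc
Sdhb (chr4:140961171-140961270, plus strand): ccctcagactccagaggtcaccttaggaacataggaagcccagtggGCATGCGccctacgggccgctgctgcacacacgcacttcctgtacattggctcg
Sdhd (chr9:50603850-50603949, minus strand): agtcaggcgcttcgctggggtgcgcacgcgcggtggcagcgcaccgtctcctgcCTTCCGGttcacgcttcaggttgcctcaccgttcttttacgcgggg
Atp5g1 and Ndufa1 held none of the searched letters anywhere in their windows. In the capitals, Atp5g2 and Sdhb carry the NRF-1 letters, Cox6a1, Cox6b1 and Sdhd the GABP letters on the opposite strand, and Atp5g3 the ERR letters on the opposite strand. Atp5g2 and Atp5g3, which encode the same mature protein as Atp5g1, thus hold different searched letters from each other in these stretches.

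Of the subunit genes, 62 of 79 had a positive change at 48 hpi, with few large ones. Atp5b (1.67-fold) and Atp5g1 (1.82-fold) of complex V, Sdhd of complex II, Cox5a of complex IV and Uqcrc1 of complex III were among those that rose most, and Ndufa1 and Ndufa7 of complex I fell. Of the 79 subunit genes, 32 were called higher (40.5%, against 19.4% of all 18193 genes) and 2 were called lower (2.53%, against 17.5% of all genes) by limma with Benjamini-Hochberg adjustment over all genes. The median change of the subunit genes, 48 hpi minus control, was 0.19 on the log2 scale (1.14-fold), and the median of all genes was −0.02. Subunit genes are abundant, and among the 12272 genes above the background of olfactory-type receptors 27.6% were called higher and 23.4% lower. Of the 75 subunit genes above that background, 31 were called higher and 2 lower, with a median change of 0.23. The 3 arrays of 48 hpi all lay above the 3 control arrays in 50 subunit genes and all lay below in 6, against 25.4% and 25.1% of all genes. With the arrays scaled to equal hybridization controls, 4409 of all genes were called higher and 837 lower, and of the subunit genes 39 and 0. Changes ran from −0.68 (Ndufa1) to 0.86 (Atp5g1). Split by level into 3 sets of 25 genes, the 75 genes above background had median changes of 0.25, 0.19 and 0.18 from the dimmest to the brightest set. The 45 uncalled subunit genes had changes between −0.28 and 0.27, of which 30 were positive, and their 95% intervals reached from −0.81 to 0.53.

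**Figure D1:**
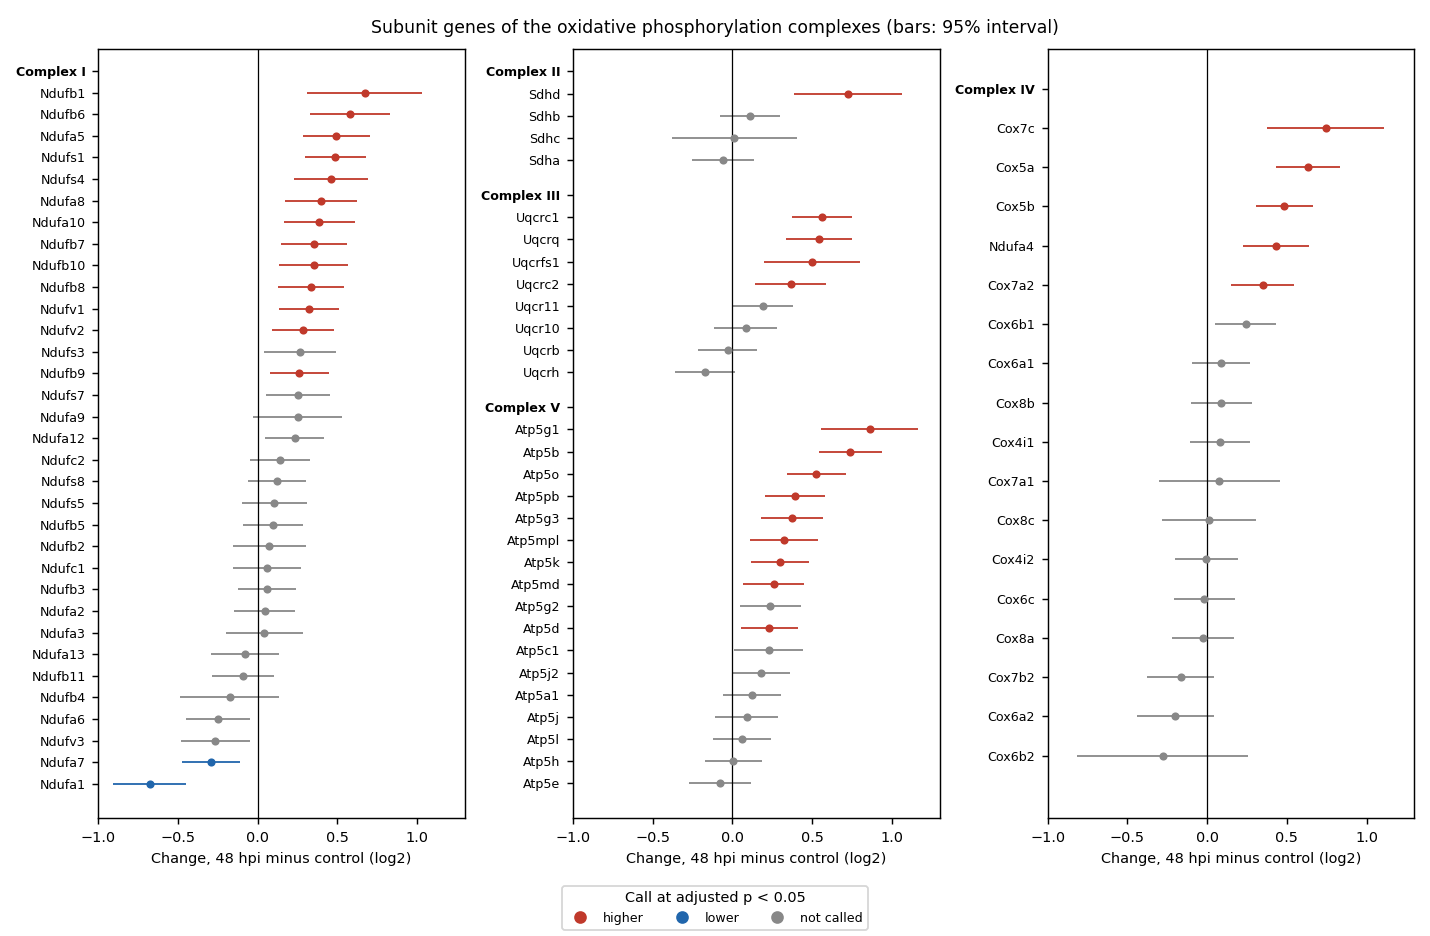
Change of each of the 79 subunit genes (x axis, 48 hpi minus control, log2; points, limma estimate; bars, 95% interval), listed by complex and coloured by call at an adjusted p below 0.05. The red points lie between 0.2 and 0.9, and only Ndufa1 and Ndufa7 are called lower.

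Array by array, relative to each gene's mean over the 6 arrays, the median subunit gene stood at −0.14, −0.09 and −0.08 in the control arrays and at 0.09 in each of the 48 hpi arrays. Taken by complex, the array medians of complexes I, III, IV and V did not overlap between the groups. For complex II the controls stood at −0.04, −0.07 and 0.01 and the 48 hpi arrays at 0.26, −0.03 and 0.03, so the groups overlapped. The median change was 0.28 for complex III (8 genes), 0.24 for complex V (17 genes), 0.23 for complex I (33 genes), 0.08 for complex IV (17 genes) and 0.06 for complex II (4 genes). The shares called higher in complexes I to V were 39.4%, 25%, 50%, 29.4% and 52.9%. Over all genes the share was 19.4%, and among genes above background 27.6%. The complexes were not tested against one another. No gene of complexes II to V was called lower by limma, 0 of them were lower at an unadjusted p under 0.05, and 1 (in complex III) was called lower with the methods' t-test.

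**Figure D2:**
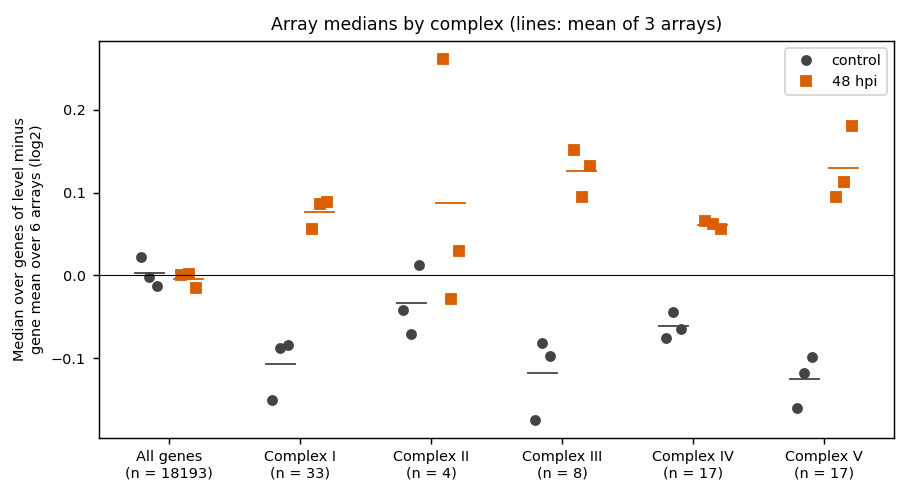
Median over the genes of each complex of the level minus the gene's mean over 6 arrays (y axis, log2), for each control array (circles) and 48 hpi array (squares), with lines at the mean of 3 arrays and all genes beside them. The 48 hpi arrays lie above the control arrays in complexes I, III, IV and V, and overlap them in complex II, where 1 array stands at 0.26.

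Complex I, which takes electrons from NADH, had 13 of 33 genes called higher and 2 called lower. With an array left out 8 to 12 were called higher, the 8 without control replicate 3, and 8 were also called with repeated quantile normalization. The 6 core subunits measured, which carry the flavin and iron-sulphur clusters or line the path to coenzyme Q, were all above control without overlap, with 3 called higher and a median change of 0.27. The 27 accessory subunits, which stabilise the complex, had 10 called higher and 2 lower and a median change of 0.11. Ndufs1, the largest iron-sulphur subunit of the core, stood at 8.16, 8.24 and 8.26 in control and 8.71, 8.65 and 8.75 at 48 hpi (RMA level, log2). It rose by 0.49 (SE 0.083, adjusted p = 0.0025), and the groups did not overlap. The other core genes called higher were Ndufv1 (0.32) and Ndufv2 (0.28), which build the NADH-binding end. Both calls were lost without control replicate 2 or 3, without 48 hpi replicate 1 and with repeated quantile normalization, that of Ndufv1 also without x and s probe sets (which can hybridize to other genes), and that of Ndufv2 also with a replicate block and without control replicate 1 or 48 hpi replicate 2. Of the accessory subunits, Ndufb6 stood at 10.29, 10.29 and 10.35 in control and 10.77, 10.79 and 11.10 at 48 hpi, a rise of 0.58 (SE 0.108, adjusted p = 0.0038). Ndufa5 stood at 9.503, 9.455 and 9.534 in control and 9.877, 9.9996 and 10.096 at 48 hpi, a rise of 0.49 (SE 0.090, adjusted p = 0.0035). Both genes were higher in every 48 hpi array than in any control array. Ndufs4, an accessory subunit whose loss causes Leigh syndrome, stood at 8.87, 8.91 and 8.96 in control and 9.27, 9.30 and 9.55 at 48 hpi, a rise of 0.46 (SE 0.101, adjusted p = 0.0081).

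The 2 subunit genes called lower were both accessory subunits of complex I. Ndufa1, a small membrane subunit needed for assembly and encoded on the X chromosome, stood at 12.40, 12.49 and 12.51 in control and 11.86, 11.88 and 11.62 at 48 hpi. It fell by 0.68 (SE 0.0996, adjusted p = 0.0013), which is 1.60-fold, with no overlap. Ndufa7 stood at 11.31, 11.39 and 11.32 in control and 11.04, 11.07 and 11.02 at 48 hpi, a change of −0.30 (SE 0.079, adjusted p = 0.020). Of its other probe sets 3 lay below control as well, and 1 of them was called. Both are measured on bright probe sets, so these falls are not of transcripts near background. Neither was called when the arrays were set to equal hybridization controls (adjusted p = 0.26 for Ndufa1 and 0.88 for Ndufa7), and Ndufa7 was also lost without control replicate 2 or 3 and without 48 hpi replicate 1. Ndufv3 (−0.265, adjusted p = 0.057) and Ndufa6 (−0.25, adjusted p = 0.056) lay below control in all 3 arrays and were not called. As near the threshold on the other side, Ndufa12 (0.23, adjusted p = 0.052) and Ndufs7 (0.25, adjusted p = 0.054) lay above control in all 3 arrays, also uncalled.

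Complex II, succinate dehydrogenase, links the tricarboxylic acid cycle to the chain and has 4 subunits. Sdhd, a membrane anchor, stood at 10.07, 9.90 and 10.03 in control and 11.07, 10.55 and 10.55 at 48 hpi, a rise of 0.73 (SE 0.147, adjusted p = 0.0056). The groups did not overlap, and 48 hpi replicate 1 was the highest array. Its call was lost with the methods' t-test (adjusted p = 0.055). Sdha, the flavoprotein, stood at 9.80, 9.76 and 9.87 in control and 9.76, 9.69 and 9.80 at 48 hpi, with a difference of −0.06 (95% interval −0.25 to 0.13). Sdhb, the iron-sulphur subunit, stood at 10.57, 10.60 and 10.68 in control and 10.78, 10.69 and 10.70 at 48 hpi, with a difference of 0.11 (adjusted p = 0.34). Sdhc, the other anchor, stood at 9.13, 9.03 and 9.11 in control and 9.51, 9.01 and 8.78 at 48 hpi, so that the injured arrays spread on either side of the controls. Sdha, Sdhb and Sdhc were not called.

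Complex III, which oxidises coenzyme Q, had 4 of 8 genes called higher and none lower at the same threshold, and its 3 core-class genes were all among them, with a median change of 0.50. Uqcrc1, core protein 1, stood at 10.28, 10.29 and 10.24 in control and 10.91, 10.80 and 10.78 at 48 hpi, a rise of 0.56 (SE 0.082, adjusted p = 0.0013). Uqcrc2, core protein 2, rose by 0.37 (adjusted p = 0.019), a call lost without control replicate 1 or 48 hpi replicate 1. Uqcrfs1, the Rieske iron-sulphur protein that hands electrons on, stood at 9.86, 9.77 and 9.83 in control and 10.61, 10.17 and 10.18 at 48 hpi, a rise of 0.50 (SE 0.130, adjusted p = 0.017). Its call was lost with the methods' t-test and without control replicate 2 or 3. As in Sdhd and Sdhc, 48 hpi replicate 1 was the highest array. Of 5 accessory genes only Uqcrq was called, with a rise of 0.54 (adjusted p = 0.0022). The call was lost with the mean of its probe sets and without x and s probe sets. Without x and s probe sets the value was −0.23, from a dim probe set (5.28 in control and 5.05 at 48 hpi).

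Complex IV, cytochrome c oxidase, had 5 of 17 genes called higher and none lower, a share of 29.4% that lies near the 27.6% of genes above background. All 5 were among the 10 subunit genes expressed in most tissues (median change 0.30). The 7 tissue isoforms of muscle, lung, testis and other sites had a median of −0.01, with none called by limma, 0 at an unadjusted p under 0.05 and 0 by the methods' t-test. They were dim, with a median control level of 5.80 against 11.90 for the 10, and 5 of the 7 were above background. Small changes of such dim genes may not be seen. Cox5a, a subunit on the matrix side of the enzyme, stood at 11.73, 11.74 and 11.80 in control and 12.30, 12.38 and 12.48 at 48 hpi, a rise of 0.63 (SE 0.087, adjusted p = 0.00095). Cox5b, the zinc-binding subunit, stood at 12.11, 12.14 and 12.12 in control and 12.58, 12.58 and 12.65 at 48 hpi, a rise of 0.485 (SE 0.079, adjusted p = 0.0020). The injured arrays of both lay well above all controls. Ndufa4, named for complex I but now counted with complex IV, stood at 11.60, 11.55 and 11.58 in control and 11.98, 11.91 and 12.13 at 48 hpi, a rise of 0.43 (SE 0.090, adjusted p = 0.0064). Cox7a2, the non-muscle form of a small subunit, rose by 0.35 (adjusted p = 0.014). The fifth called gene, Cox7c, was measured only on probe sets within the background (3.82, 3.91 and 4.26 in control, 4.47, 4.96 and 4.79 at 48 hpi), and its call was lost with the methods' t-test and without x and s probe sets. Cox4i1, the largest nuclear-encoded subunit, differed by 0.08 (95% interval −0.11 to 0.27), Cox6a1 by 0.09, Cox6c by −0.02 and Cox8a by −0.03, none of them called. Cox6b1, the other uncalled gene of the 10, differed by 0.24 (adjusted p = 0.052), and its groups did not overlap. It was called higher in 7 of 18 alternative settings.

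Complex V, ATP synthase, had 9 of 17 genes called higher and none lower. With an array left out 5 to 8 were called, and without control replicate 2 or without 48 hpi replicate 2 the 5 were Atp5b, Atp5g1, Atp5g3, Atp5o and Atp5pb. The 9 comprised 2 of the 5 genes of the catalytic F1 head and 7 of the 12 genes of the membrane Fo part and stalk. Atp5b, the catalytic beta subunit, stood at 10.86, 10.83 and 10.84 in control and 11.68, 11.50 and 11.57 at 48 hpi, a rise of 0.74 or 1.67-fold (SE 0.085, adjusted p = 0.00044). Atp5o, the OSCP subunit at the top of the peripheral stalk, stood at 10.71, 10.80 and 10.81 in control and 11.28, 11.27 and 11.34 at 48 hpi, a rise of 0.53 (SE 0.081, adjusted p = 0.0016). Atp5pb, the b subunit of the same stalk, stood at 11.36, 11.40 and 11.49 in control and 11.85, 11.79 and 11.79 at 48 hpi, a rise of 0.39 (SE 0.082, adjusted p = 0.0066). In all 3 the groups were far apart relative to their spread. Atp5e, the epsilon subunit of F1, differed by −0.08 and Atp5h, the d subunit of the stalk, by 0.01, neither called.

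The nuclear genes Atp5g1, Atp5g2 and Atp5g3 encode an identical mature subunit c, which forms the rotating ring, behind different import sequences. Atp5g1 stood at 9.43, 9.24 and 9.38 in control and 10.055, 10.083 and 10.497 at 48 hpi, a rise of 0.86 or 1.82-fold (SE 0.133, adjusted p = 0.0016), with 48 hpi replicate 3 the highest. With the mean of its 2 probe sets, of which the other was not above background and differed by −0.14, the rise was 0.36. Atp5g3 stood at 12.70, 12.64 and 12.70 in control and 12.997, 13.028 and 13.140 at 48 hpi, a rise of 0.37 (SE 0.084, adjusted p = 0.0091). Atp5g2 stood at 11.34, 11.43 and 11.41 in control and 11.61, 11.58 and 11.70 at 48 hpi, with a difference of 0.24 that was not called (adjusted p = 0.057) although the groups did not overlap. In all, 10 isoform pairs were compared array by array with an exact two-sided permutation test, which cannot go below p = 0.1 with 3 against 3 arrays. The change of Atp5g1 exceeded that of Atp5g2 by 0.62 and that of Atp5g3 by 0.49, each at exact p = 0.1 and 0.2 after adjustment over the 10 pairs. Ndufa4 exceeded Ndufa4l2, a hypoxia-induced relative, by 0.38, also at exact p = 0.1 (0.2 after adjustment). Ndufa4l2 was dim, at 5.38 in control and 5.43 at 48 hpi. Cox4i1 and Cox4i2, the ubiquitous form and the lung and hypoxia form, differed in change by 0.09 (exact p = 0.3, 0.375 after adjustment). Cox4i2 was also dim (5.80 in control).

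**Figure D3:**
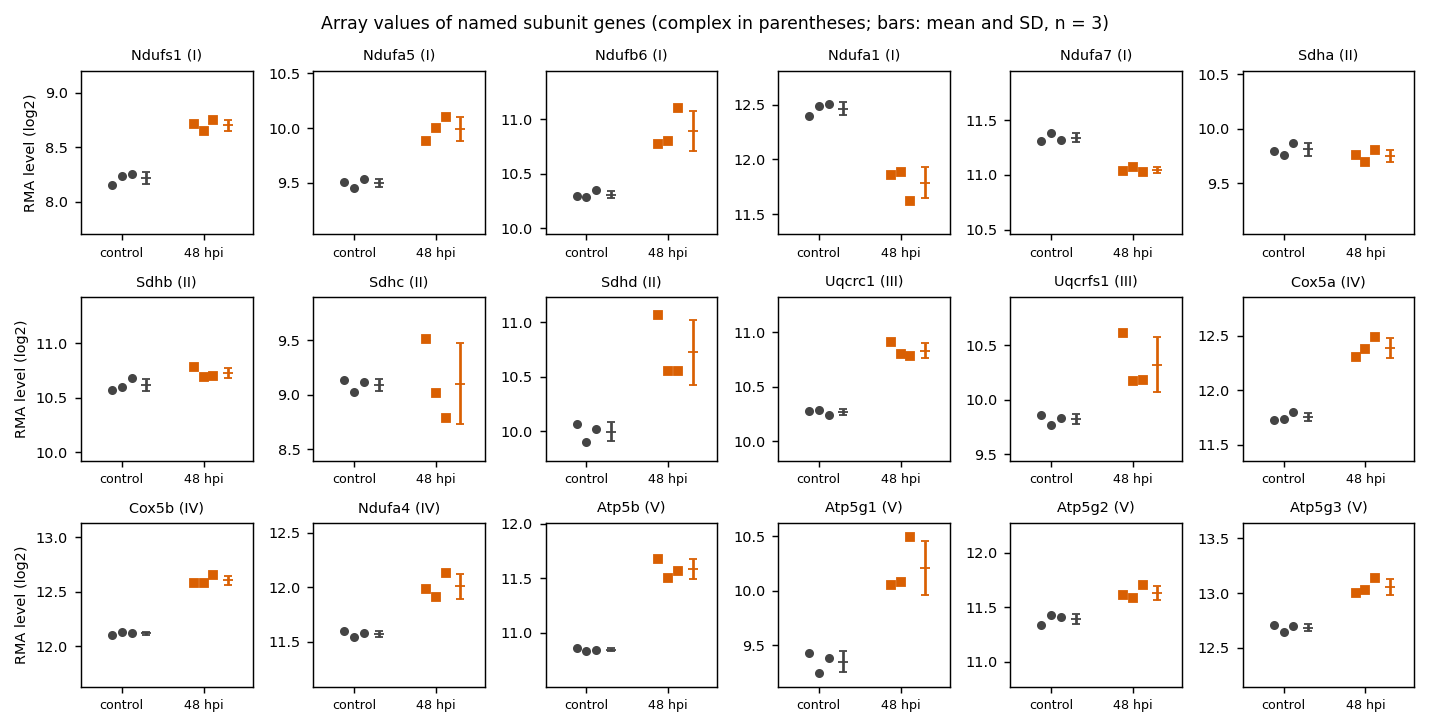
RMA level (y axis, log2, each panel spanning the same range) of 18 named subunit genes in 3 control arrays (circles) and 3 arrays of 48 hpi (squares), with the mean and SD beside them. The groups are apart in Ndufs1, Uqcrc1, Cox5a, Cox5b, Atp5b and Atp5g1, inverted in Ndufa1 and Ndufa7, and overlapping in Sdha and Sdhc.

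Probe sets of the same gene did not always move together. Of 160 subunit probe sets, 62 were called higher and 5 lower when all probe sets were fitted, against 17.7% and 15.2% of all probe sets. Of 47 subunit genes with several probe sets, 12 had every probe set called the same way, 16 had called and uncalled ones, and 1 had calls in both directions. That gene was Ndufs4, where 3 probe sets, 1 of them not above background, rose by 0.46 to 0.53 and another fell by 0.42 (adjusted p = 0.022). The fallen probe set stood at 5.85 in control, beside 5.86 for 1 of the risen ones and 8.91 for the brightest. All 3 probe sets of Cox5a were called higher, as were the 4 bright ones of Cox5b. Atp5a1, the alpha subunit of F1, was not called on its brightest probe set (0.12), while its other probe sets rose by 0.55 and 0.33. Sdhc fell by 0.45 on its second probe set (adjusted p = 0.031) and differed by 0.01 on the brightest. Uqcrb differed by −0.03 on a probe set near the top of the scale (13.4) and rose by 0.28 on the other. Uqcrq rose by 0.54 on the brightest probe set. Its other 3 were all dim (4.66 to 5.28 in control), and 1 of them rose by 0.53 while the others differed by −0.11 and −0.23. Which probe set best tracks each transcript was not tested.

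**Figure D4:**
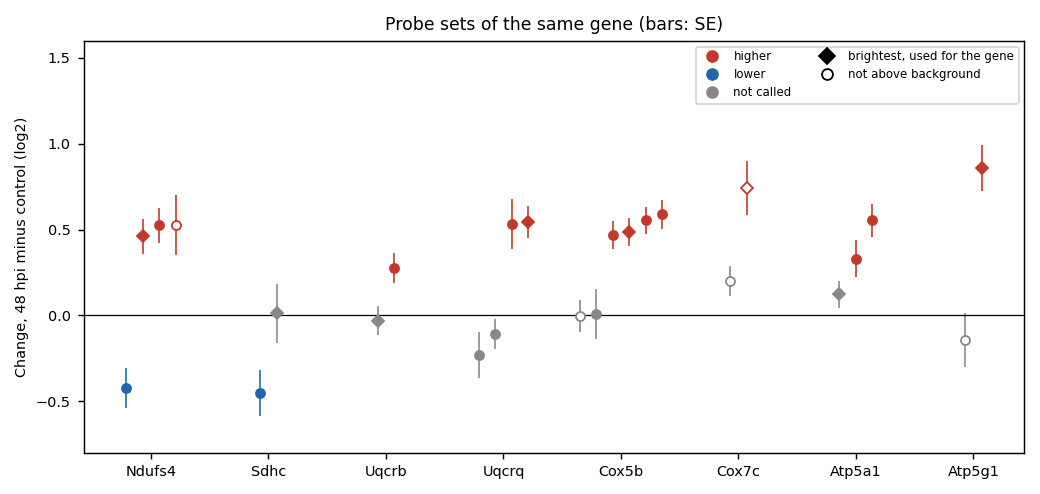
Change (y axis, 48 hpi minus control, log2; bars, SE) of each probe set of 8 subunit genes, coloured by call, with diamonds for the brightest probe set used for the gene and open symbols for those not above background. The Cox5b probe sets above background rise together apart from 1 dim one, whereas Ndufs4 holds 3 risen and 1 fallen.

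Genes of other mitochondrial lists were also called higher more often than lower. Over all genes 19.4% were called higher and 17.5% lower, and among genes above background 27.6% and 23.4%. Of 13 complex I assembly factors 9 were called higher and none lower (median 0.58), led by Ndufaf1 (0.87, SE 0.11) and Ndufaf4 (1.63, SE 0.17). Of 29 assembly factors of complexes II to V 16 were called higher and 1 lower (median 0.28), among them Atpaf1, the F1 chaperone (0.87), and Cox11, a copper chaperone (0.96). With the mean of their probe sets these 2 rose by 0.52 and 0.48. Of 14 genes for electron carriers and coenzyme Q synthesis 7 were called higher and 1 lower, with Cycs, cytochrome c, up by 0.93 and Coq4 by 0.66. Of 17 tricarboxylic acid cycle genes 12 were called higher and none lower (median 0.46), with Idh3a up by 1.35 and Dlat by 1.06, and Idh3a up by 0.40 with the mean of its probe sets. Of 7 porins and carriers 6 were called higher and none lower, with Slc25a4, the adenine nucleotide carrier that exports ATP, up by 1.04 and the outer membrane pore Vdac3 by 0.59.

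Genes that make and import mitochondrial proteins were mostly called higher, against 19.4% of all genes called higher and 17.5% lower. Of 76 mitochondrial ribosomal proteins 67 were called higher and none lower (median 0.66), with Mrpl45 up by 1.23 and Mrps7 by 0.96. Of 21 protein import genes 18 were called higher and none lower (median 0.94), with Timm8a1 up by 2.21 and Tomm70a by 1.61 (1.04 with the mean of its probe sets). Of 18 biogenesis regulators 11 were called higher and 2 lower (median 0.46). Tfam, which packages and transcribes mitochondrial DNA, stood at 7.03, 7.12 and 6.98 in control and 7.87, 7.72 and 7.86 at 48 hpi, a rise of 0.78 (adjusted p = 0.00043) that was 0.34 with the mean of its probe sets. Ppargc1a, the coactivator PGC-1alpha, stood at 7.07, 6.80 and 6.97 in control and 6.08, 6.02 and 5.72 at 48 hpi and fell by 1.01 (SE 0.12, adjusted p = 0.00057). These 2 regulators changed in opposite directions, and the groups overlapped in neither. In the lists with no gene called lower (complex I assembly, tricarboxylic acid cycle, porins and carriers, ribosome and import), 0 genes were lower at an unadjusted p under 0.05 or by the methods' t-test.

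**Figure D5:**
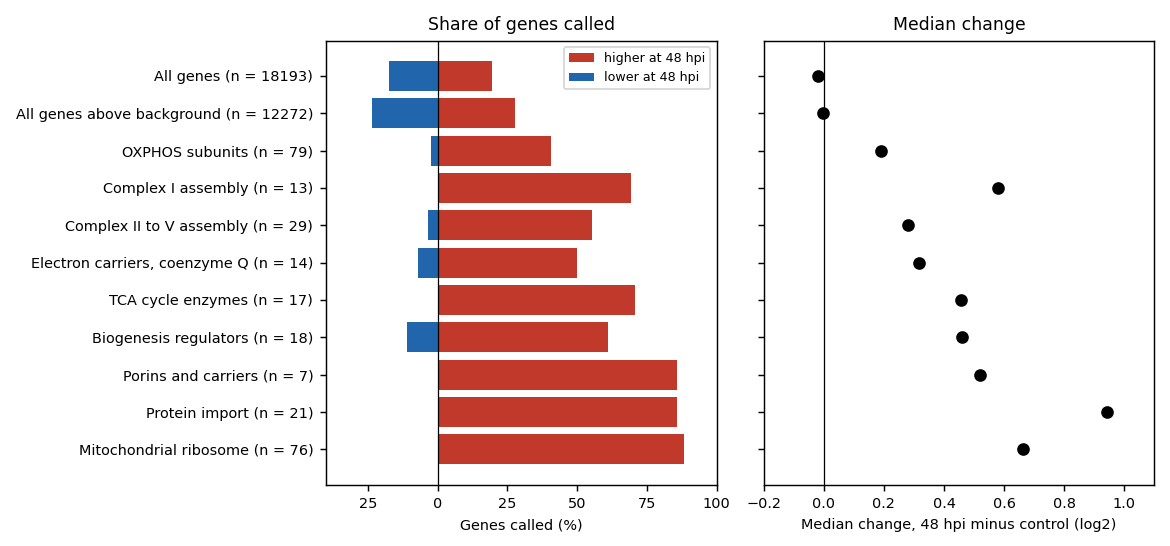
Share of genes called higher (red, to the right) and lower (blue, to the left) at 48 hpi in percent, and median change (log2), for the subunits, 8 other mitochondrial lists and all genes. Subunits reach 40.5% higher, the mitochondrial ribosome 88.2%, and all genes 19.4%.

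Ciliated, secretory and cycling markers differed between the groups in most members. Of 19 ciliated cell markers 17 were called lower and none higher (median −1.23, Hydin −1.12, Tmem212 −3.62), and their mean level ran from 6.05 to 7.10 in control and from 4.77 to 5.47 at 48 hpi. Of 14 secretory markers 13 were called lower (median −1.07, Lypd2 −1.49, Foxa3 −1.12), with mean levels of 11.7 to 11.8 and 9.95 to 10.9. All 11 cycling markers were called higher (median 3.41, Birc5 3.91, Ccnb2 3.62), with mean levels of 6.84 to 6.91 and 9.79 to 10.1. Of 10 basal markers 3 were called higher, among them Krt14 (3.18) and Itga6 (0.80), and 2 lower (Ngfr −0.66, Pdpn −0.35). The basal share called higher, 30%, lay near the 27.6% of all genes above background. Over all genes 19.4% were called higher. The shares called lower in the basal list and in the next lists (10% to 20%) lay near the 17.5% of all genes or below it. Leukocyte and macrophage markers numbered 13, of which 5 exceeded background and 2 were called lower (Csf1r −0.84, Lyz2 −3.14), of 10 fibroblast and cartilage markers 2 were called lower (Chad −2.68, Dcn −1.85), and of 15 muscle markers 1 was called higher (Tnni2 1.45) and 2 lower (among them Myh11 −0.43). The calls of Lyz2 and Dcn were lost with the methods' t-test (adjusted p = 0.12 and 0.076), that of Lyz2 also without control replicate 3, and those of Csf1r and Myh11 with equal hybridization controls (adjusted p = 0.091 and 0.77). Hydin, Csf1r, Dcn and Tnni2 stood at −0.55, −0.37, −0.89 and 0.81 with the mean of their probe sets. Of 10 male germ cell markers only Prm1 (−0.30) was called and it was the only one above background, and its call was lost with equal hybridization controls, with the mean of its probe sets and with any 1 array left out other than 48 hpi replicate 2. In such bulk samples, fewer cells of a type and less RNA per cell cannot be told apart, and the part of these differences in the subunit changes was not tested.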

How the data were processed

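RNA of tracheal epithelium was hybridized to Affymetrix Mouse Genome arrays, 3 for control and 3 for 48 hpi, each a pool of 4 tracheas. The values deposited by the authors are on a log2 scale, after robust multi-chip analysis (RMA). Tools named by the submitters' processing notes are Affymetrix Expression Console 1.1 and Partek 6.5. RMA fits all arrays together and compresses small and near-saturated differences. The number of arrays limits the precision, and no detection calls come with the values.

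Members and lists were chosen with earlier results of these data known. Genes were named by the array annotation, and all 81 member genes matched RefSeq by Entrez ID. Each gene was represented by its brightest probe set (mean of all 6 arrays), and a separate fit used all probe sets. The 48 hpi group was set against control by limma 3.58.1 (lmFit, eBayes; R 4.3.3), and p-values were adjusted over 18193 genes by the Benjamini-Hochberg method (threshold 0.05). Background was taken as the 95th percentile over group means of the 79 olfactory, vomeronasal and trace amine receptor probe sets (4.94 in control, 4.81 at 48 hpi). Subunits were given to complexes from general knowledge, with Ndufa4 in complex IV. Named genes were all of complex II, the 4 called genes with the smallest p per other complex and direction, isoform families, the 4 largest rises and falls, genes with opposite probe sets, and the 2 called genes with the smallest p per other list. Other genes given with values (such as Ndufv1, Ndufv2, Ndufa6, Uqcrb, Atp5a1, Atp5e and Atp5h) were chosen after their values were seen. On simulated data with 18193 genes, of which 200 were changed, log2 changes of 0.5, 1 and 2 were recovered in 29.4%, 77.3% and 100% of cases, with 3 false calls. Pairs of isoforms were compared with SciPy 1.17.1 and plots drawn with matplotlib 3.10.9 in Python 3.11.15.

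Alternatives were the mean-variance trend, robust estimation, the methods' t-test (the unpaired test that the study names as its default, while it analysed the arrays by two-way analysis of variance), repeated quantile normalization, a common median, equal hybridization controls, a background filter, the mean of probe sets, no x and s probe sets (which can hybridize to other genes), a replicate block, array weights, each array left out, Ndufa4 in complex I and a threshold of 0.01. Hybridization controls, spiked into each target, averaged 11.7, 11.1 and 11.2 in control and 11.1, 11.0 and 10.9 at 48 hpi. The 3′ minus 5′ difference of Gapdh probe sets was 0.30 to 0.54 in control and 0.15 to 0.47 at 48 hpi. That of Actb was 0.88 to 1.22 in control and 0.58 to 1.17 at 48 hpi. For both genes 48 hpi replicate 1 was the lowest array, and it was the highest array in Sdhd, Sdhc and Uqcrfs1. Within its group, 48 hpi replicate 3 correlated 0.990 and 0.992 with the others, against 0.996 between those 2. Control replicate 1 likewise correlated 0.993 and 0.992 with the other controls, against 0.996 between those 2. Fits with equal hybridization controls, array weights and each array left out are in the closing section. The part of the 3′ minus 5′ difference in the results was not tested.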

Additional observations from a re-analysis of the deposited data

How the results depend on the processing

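The count of subunit genes called higher (32) stayed between 23 and 39 under the alternatives at the threshold of 0.05 and was 16 at 0.01. Of the 32, 20 were called without each array in turn, and 16 in every fit at 0.05 (Atp5b, Atp5g1, Atp5g3, Atp5o, Atp5pb, Cox5a, Cox5b, Cox7a2, Ndufa10, Ndufa4, Ndufa5, Ndufa8, Ndufb6, Ndufs1, Ndufs4 and Uqcrc1). The count called lower (2) was 4 with the mean-variance trend, repeated quantile normalization, the background filter, the mean of probe sets or array weights, 3 with the methods' t-test (Ndufa1, Ndufa7 and Uqcrh), 0 with equal hybridization controls, 1 at the 0.01 threshold, and 1 to 2 with an array left out, the count being 1 without control replicate 2 or 3 and without 48 hpi replicate 1. Equal hybridization controls moved the median of all genes to 0.32 and the counts over all genes from 3527 higher and 3191 lower to 4409 and 837. This setting shifts each array by a constant, so the subunit median could not move against that of all genes and stayed 0.21 above it. Over all fits this difference ran from 0.19 to 0.23. With equal hybridization controls the medians of complexes I to V were 0.58, 0.41, 0.62, 0.42 and 0.58. With repeated quantile normalization complexes I, III and IV had medians of 0.15, 0.19 and 0.12, and complex II reversed to −0.0386. Complex IV had 0.11 with a common median, complexes I, III and V had 0.17, 0.19 and 0.29 with the mean of probe sets, and complexes III and V had 0.14 and 0.30 without x and s probe sets. With an array left out the medians ran from 0.16 to 0.25 (I), 0.011 to 0.15 (II), 0.23 to 0.31 (III), 0.074 to 0.094 (IV) and 0.23 to 0.25 (V). Reversed single genes, none of them called after reversal, were Sdhc (−0.10) and Cox8c (−0.11) with quantile normalization, and Cox4i2 (0.022) and Cox8a (0.0028) after a common median was set. Equal hybridization controls reversed Sdha (0.28), Ndufa7 (0.048), Cox4i2 (0.34), Cox6a2 (0.14), Cox6b2 (0.064), Cox7a2l (0.13), Cox7b2 (0.18), Cox8a (0.32), Ndufv3 (0.079) and Prm1 (0.040). The mean of probe sets reversed Sdhc (−0.22) and Cox8c (−0.21), and leaving out x and s probe sets reversed Sdha (0.10), Uqcrq (−0.23) and Cox8a (0.058). With an array left out, Sdhc ran from −0.19 to 0.17, Cox4i2 from −0.047 to 0.023, Cox7a1 from −0.10 to 0.22, Cox8c from −0.066 to 0.15, Cox8a from −0.052 to 0.0125, Ndufa4l2 from −0.034 to 0.16 and Cox6b2 from −0.45 to 0.0094. The cause of these moves was not tested. Same-numbered arrays had deviations correlated by 0.07, 0.16 and 0.03, and differently numbered ones by −0.14 to 0.04. The main fit did not take the numbers as pairs, and with the replicate block 28 subunit genes were called higher and 2 lower. By the methods' t-test 6 of 19 ciliated and 5 of 14 secretory markers were called lower. In the simulation, with 3 arrays per group and 200 of 18193 genes changed, log2 changes of 0.5 were often missed. In the data 3527 genes were called higher and 3191 lower, which makes the adjustment less strict. The simulated recovery therefore does not give the share of changes found in the data.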
